A study of Drosophila melanogaster with 36 samples.

Results

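The active derivatives of chemotype 3 (CT3; AU-6) and chemotype 2 (CT2; TPE-69) were compared directly across genes, to ask which transcripts differed between cells under each of these inhibitors of lipid storage. The comparison rests on 6 of the 36 RNA-Seq libraries of the series, which were chosen by their labels: 3 of active CT3 and 3 of active CT2. All these cells were Drosophila S3 cells, an established line from fly embryos, kept for 4 h in medium with 200 µM oleic acid (OA), 0.1% DMSO as the solvent and 1 µM of the compound. The concentrations and the time were thus matched, but equal concentrations need not be equally effective doses. Cells under the inactive derivatives AU-73 (CT3) and TPE-67 (CT2), with 3 libraries each, and control cells with OA and DMSO only (vehicle OA, 2 libraries that the study kept) had the same medium and served as references. The fit also held active and inactive chemotype 1 (CT1; 1 µM with OA and DMSO, 3 libraries each). Control cells with DMSO but without OA (2 libraries that the study kept) were in it as well. The filter, the scaling and the spread behind the p-values came from all 22 libraries of the fit. A pair of active and a pair of inactive derivatives were compared. The data hold 1 cell line, 1 dose and 1 time. The methods say that RNA was taken after treatment and that measurements were replicated, but not whether the replicates of a group were separate cultures, so the p-values measure the spread between these libraries, which may be technical.

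Cells store surplus fatty acids as triacylglycerol (TAG) in lipid droplets (LDs). The last step of TAG synthesis is done by diacylglycerol acyltransferases, of which midway (mdy) encodes the DGAT1 of the fly. Perilipins coat LDs and govern the access of lipases. Fatty acids that are not stored can be degraded by beta-oxidation in mitochondria, which they enter as carnitine esters, and in peroxisomes, whose enzymes are imported by peroxins.

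The 6 libraries held between 3159428 and 6313637 counts, with 3159428, 4819191 and 6313637 in active CT3 and 5312072, 5522487 and 5167327 in active CT2. The 18S rRNA gene took 40.5% to 51.5% of the counts in active CT3 and 41.6% to 51.1% in active CT2. Spearman's rho between any pair of the 6 libraries lay between 0.990 and 0.994, and libraries of 1 group differed beyond sampling noise (chi-square per degree of freedom 1.48 to 2.33 over genes), so each was counted as 1 replicate. The Hox genes Abd-B and abd-A were the only tested ones of 8, and 5 had no read in the 6 libraries. The line has no defining marker in the labels. Of the markers of other cell types, 7 of 10 hemocyte genes found in the data were tested, among them srp and Pxn, and their summed level was 4229 to 4451 CPM in active CT3, against 4446 to 4715 CPM in active CT2 (CPM, counts scaled by edgeR to a common library size of 1e6). Fat body markers summed to 3.99 to 5.26 CPM in active CT3, against 3.72 to 5.56 CPM in active CT2, and the fat body genes Fbp1, Fbp2, Lsp2 and Lsp1alpha were at 0 counts in all 6. Neuron markers summed to 33.4 to 36.2 CPM in active CT3, against 37.0 to 42.6 CPM in active CT2, and muscle markers, in which only Mlc2 was tested, to 198 to 218 CPM in active CT3, against 198 to 209 CPM in active CT2. None of the 15 tested markers was DE in the direct comparison with edgeR or DESeq2 (1 had an unadjusted p under 0.05), and their part in its results was not tested. Among the reference libraries, replicates 1 and 2 of inactive CT2 and replicate 3 of inactive CT3 stood apart on 1 of the first 3 principal components, and the main results that use them are also given with single inactive libraries left out. These libraries held 3048513, 2939893 and 2664823 counts. Replicate 3 of inactive CT2 held 6441640, and replicates 1 and 2 of inactive CT3 held 5841490 and 4858131. The part of depth in their position was not tested.

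Nearly all genes that differed between active CT3 and active CT2 were higher in active CT3. Of 7522 genes tested with edgeR's quasi-likelihood test, 35 (0.465%) were differentially expressed (DE, adjusted p under 0.05), 32 (0.425%) higher and 3 (0.0399%) lower in active CT3. The 32 included genes of LDs, of beta-oxidation, of organic cation transport and of glutathione conjugation. Their log2 fold changes lay between 0.27 and 0.81. The perilipin gene Lsd-1 showed the largest change among DE genes, and Rab3 the largest decrease. All 35 had libraries that did not overlap, which held for 16.4% of all genes tested (8.53% with active CT3 higher and 7.86% with active CT3 lower). At an unadjusted p under 0.05 there were 774 genes (10.3%). The median log2 fold change of all genes tested was 0.00, and 50.6% of them were above 0. For 6927 genes (92.1%) the 95% interval of the difference lay within 2-fold either way, and for 5763 (76.6%) within 1.5-fold. For the remaining genes the interval reached beyond 1.5-fold.

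The count of DE genes depended on single libraries and on the fit. Without active CT2 replicate 3 the 35 became 4, without active CT2 replicate 2 they became 8, and without active CT3 replicate 3 or 2 they became 16 or 21. It became 26 without active CT3 replicate 1, 47 without active CT2 replicate 1, 84 without a filter on low counts, 134 with only the groups compared, and 292 when a replicate block was added to that. Of the 35, 14 were called in at most 2 of the 6 settings that left out a library, and Rab3 and CG12702 in none. Lsd-1, the organic cation transporter gene Orct2, CG5167 and CG2604 were DE without each of the 6 libraries in turn. The direction of all 35 was kept in every setting tried. Since their libraries did not overlap, leaving out 1 of them could hardly reverse it, so this is no evidence of stability. Limma on the deposited FPKM values called 0 genes, with 283 at an unadjusted p under 0.05, and limma on log2 CPM with the same scaling as edgeR called 21, all among the 35.

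**Figure D1:**
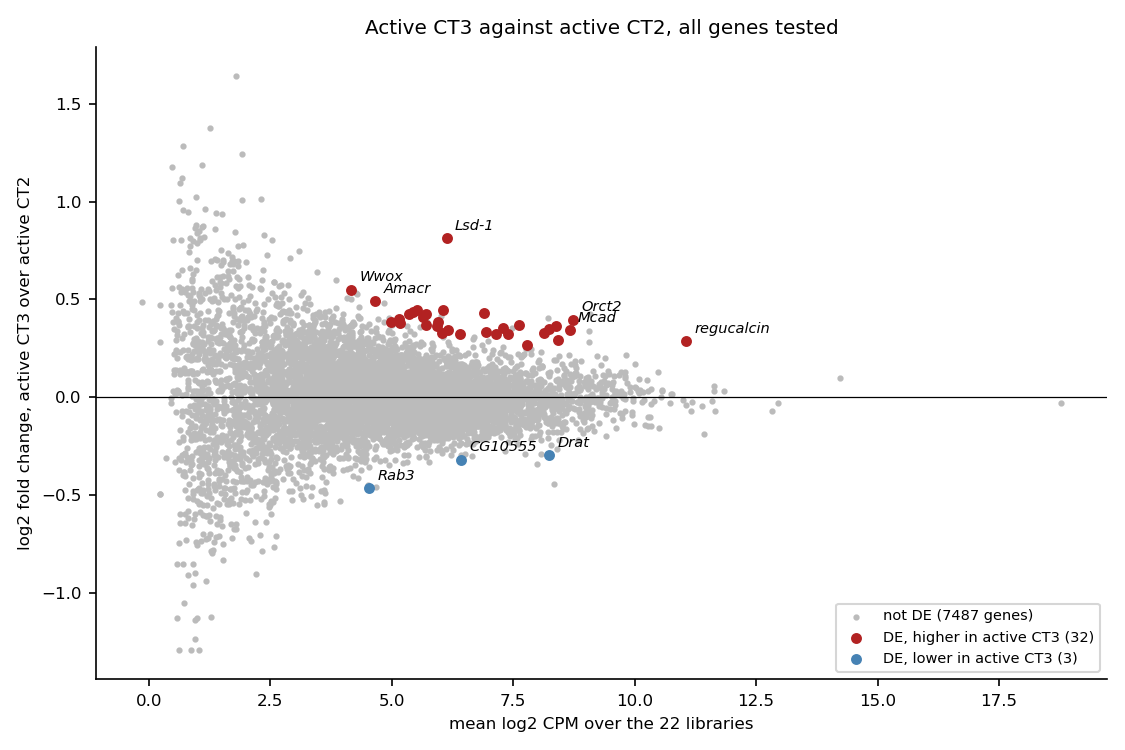
Log2 fold change of active CT3 over active CT2 (vertical axis) against the mean level over the 22 libraries of the fit (horizontal axis, log2 CPM), 1 point per gene tested. The 32 DE genes higher in active CT3 (red) lie between 0.27 and 0.81 and the 3 lower ones (blue) between -0.47 and -0.30, while genes that were not DE (grey) spread more widely at low levels.

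Among genes of the LD coat and of lipolysis, 2 of 9 tested were DE, both higher in active CT3, beside 0.425% of all genes tested. Lsd-1 (FBgn0039114), which encodes perilipin 1 of the LD surface, had 92.9, 113 and 112 CPM in active CT3, against 72.1, 57.1 and 53.7 CPM in active CT2. The groups did not overlap, and the lowest active CT3 library was 92.9 CPM against a highest active CT2 library of 72.1 CPM. The means were 106 ± 11.2 CPM in active CT3 and 61.0 ± 9.78 CPM in active CT2 (SD, n = 3 each). The fitted difference was 1.76-fold with a 95% interval of 1.54 to 2.00 (log2 fold change 0.81, SE 0.093, adjusted p = 7.4e-07). Both groups lay above the inactive derivatives, with 30.7, 28.9 and 31.1 CPM in inactive CT3 and 40.3, 45.4 and 35.1 CPM in inactive CT2, and above vehicle OA with 28.9 and 20.4 CPM. Active CT2 was thus intermediate between active CT3 and vehicle OA. The other perilipin gene, Lsd-2, had 1161, 1181 and 1150.2 CPM in active CT3, against 1044, 965 and 998 CPM in active CT2. Its libraries did not overlap either, but the difference was smaller and missed the threshold (log2 fold change 0.22, SE 0.059, adjusted p = 0.099). Seipin, which encodes an endoplasmic reticulum protein of LD formation, had 47.7, 44.5 and 46.4 CPM in active CT3, against 36.6, 35.2 and 34.3 CPM in active CT2. It was DE (log2 fold change 0.38, SE 0.09, adjusted p = 0.034), and no active CT2 library reached the level of an active CT3 library. Seipin was DE in 1 of the 6 settings that left out a library. Fitm, whose mammalian relative acts in LD formation, was not DE (0.29, adjusted p = 0.22), and neither was the TAG lipase gene brummer (bmm; 0.09, adjusted p = 0.86), whose 95% interval was -0.16 to 0.33. For the whole list the median was 0.26 on the log2 scale, beside 0.00 over all genes tested, and its summed level was 1697 to 1740.4 CPM in active CT3, against 1412 to 1546 CPM in active CT2. Since RNA came from whole cultures, a higher level in every cell and a larger share of responding cells cannot be told apart.

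**Figure D2:**
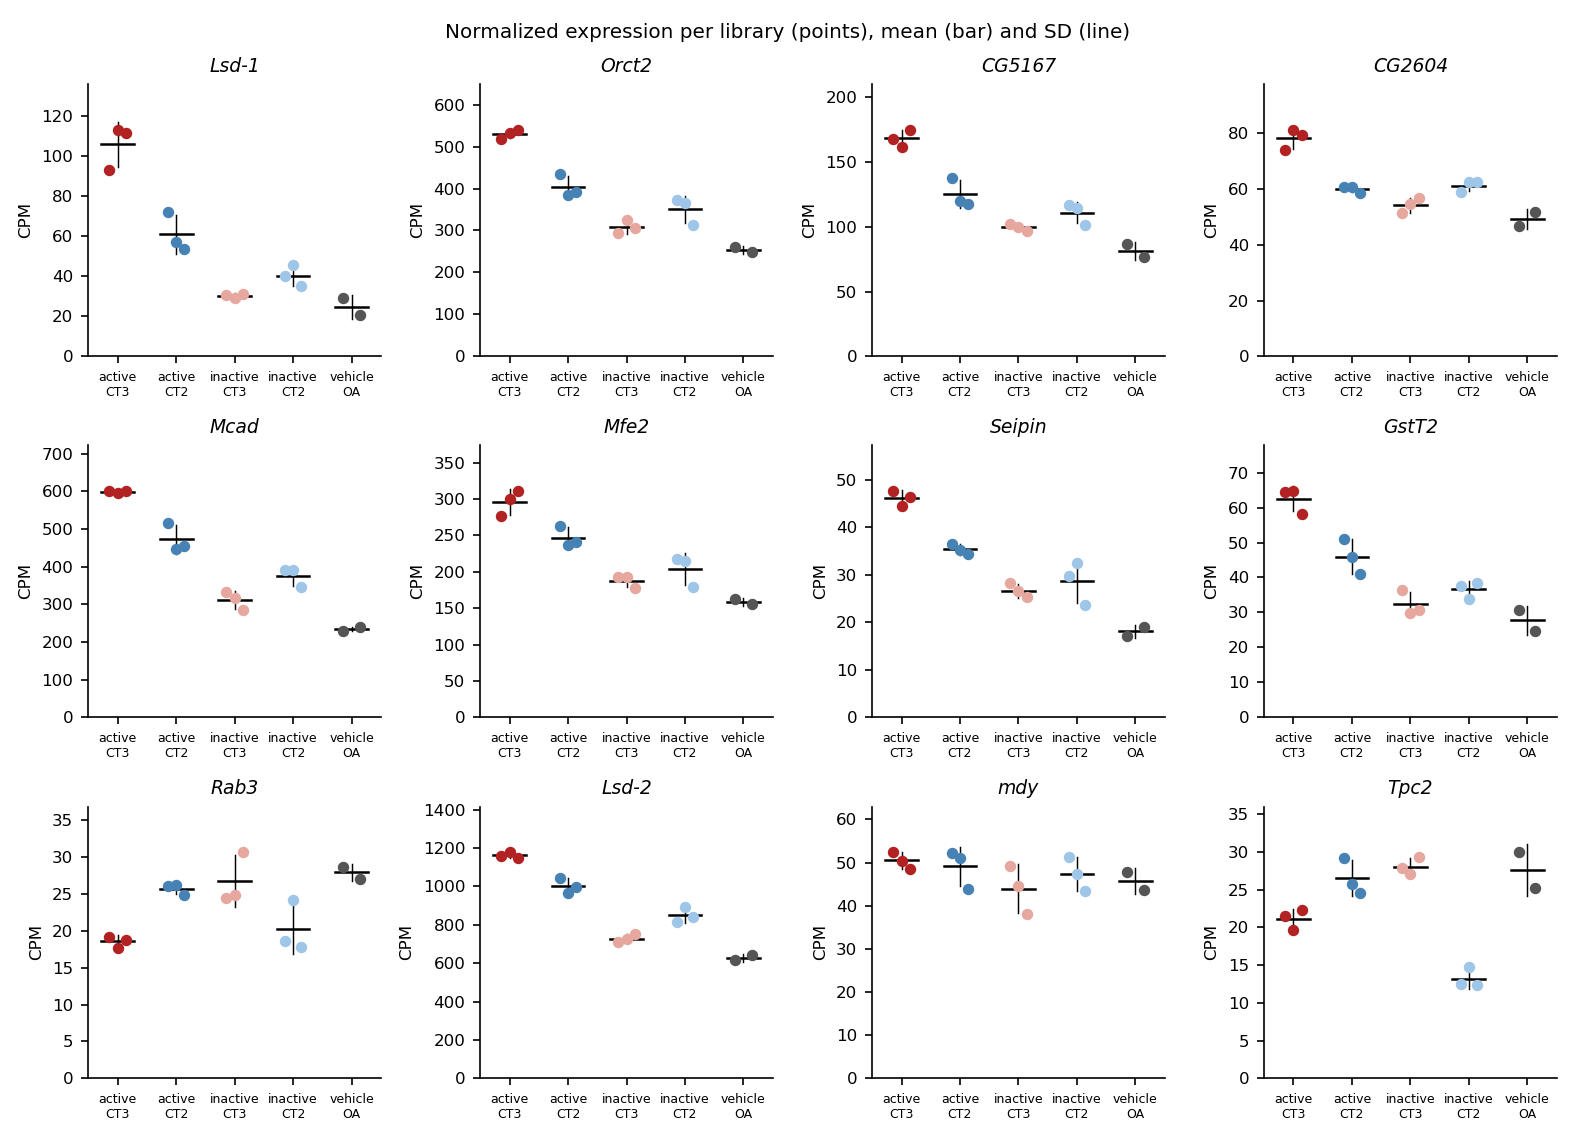
Expression in CPM (vertical axes, from 0) of 12 genes in each library (points) of active CT3, active CT2, inactive CT3, inactive CT2 and vehicle OA, with group means (bars) and SD (lines). Active CT3 lies above active CT2 for the 8 genes from Lsd-1 to GstT2 and for Lsd-2, which was not DE. It lies below for Rab3, while the groups overlap for mdy, and Tpc2 is lowest in inactive CT2.

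Of 20 tested genes of mitochondrial beta-oxidation, 3 were DE, all higher in active CT3, beside 0.425% of all genes tested, and 19 had a log2 fold change above 0, beside 50.6%. Mcad, the medium-chain acyl-CoA dehydrogenase, had 601, 596 and 601 CPM in active CT3, against 516, 446 and 455 CPM in active CT2. The 3 active CT3 libraries lay close together and above all active CT2 libraries (log2 fold change 0.34, SE 0.065, adjusted p = 0.0055). The thiolase gene yip2 had 481, 459 and 443 CPM in active CT3, against 393, 356 and 334 CPM in active CT2, and was DE as well (log2 fold change 0.35, SE 0.069, adjusted p = 0.007). Mtpbeta, a subunit of the trifunctional protein, had 491, 459 and 467 CPM in active CT3, against 421, 360.1 and 377 CPM in active CT2 (log2 fold change 0.29, SE 0.07, adjusted p = 0.042). Its libraries did not overlap, and it was DE in 1 of the 6 settings that left out a library. The carnitine-acylcarnitine translocase gene colt, which was not DE, had a log2 fold change of 0.31, adjusted p = 0.0525. Outside the rule for named genes, the carnitine palmitoyltransferase genes whd and CPT2 had log2 fold changes of 0.17 and 0.26, with adjusted p = 0.42 and 0.20. The gene of the list below 0 was CG4594, with 6 to 17 counts per library and a wide 95% interval of -1.02 to 0.40. Of the 20 genes, 14 had libraries that did not overlap with active CT3 higher, which held for 8.53% of all genes tested. The median of the list was 0.21, and its summed level was 4983 to 5122 CPM in active CT3, against 4114 to 4631 CPM in active CT2, with 2826 and 2720.0 CPM in vehicle OA. In the pair of inactive derivatives the median of the list was -0.08.

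Genes of carnitine synthesis and of the organic cation transporter family had the highest median of the pathway lists, 0.40 over 8 tested genes, 3 of them DE, all higher in active CT3, beside 0.425% of all genes tested. Orct2, an organic cation transporter, had 519, 531 and 540.1 CPM in active CT3, against 434, 384 and 392 CPM in active CT2, with no overlap (log2 fold change 0.40, SE 0.066, adjusted p = 0.0013). CG8654, of the same family, had 75.3, 78.6 and 74.7 CPM in active CT3, against 64.6, 54.4 and 52.8 CPM in active CT2 (log2 fold change 0.41, SE 0.083, adjusted p = 0.0076). CG5321, listed with the gamma-butyrobetaine dioxygenases of carnitine synthesis, had 75.6, 82.5 and 65.4 CPM in active CT3, against 61.5, 51.9 and 48.4 CPM in active CT2 (log2 fold change 0.45, SE 0.098, adjusted p = 0.015). These genes showed the same order, with active CT3 above active CT2 in every library. SLC22A had the largest log2 fold change of the list, 0.80, but rested on 19 to 39 counts per library and was not DE (adjusted p = 0.18). CG6126 was the tested member below 0, at -0.12 (adjusted p = 0.78). Of 7 tested acyl-CoA synthetase and fatty acid transport genes all were above 0, beside 50.6% of all genes tested, and 1 was DE, beside 0.425%. The DE gene was CG6178, an acyl-CoA synthetase relative, with 195, 207 and 189.5 CPM in active CT3, against 173, 154 and 145 CPM in active CT2 (log2 fold change 0.33, SE 0.069, adjusted p = 0.012). The long-chain acyl-CoA synthetase gene Acsl, the synthetase gene pudgy (pdgy) and the fatty acid binding protein gene fabp were not DE, with log2 fold changes of 0.23, adjusted p = 0.28, of 0.17, adjusted p = 0.36 and of 0.21, adjusted p = 0.27.

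Of 11 tested genes of peroxisomal beta-oxidation, 2 were DE, both higher in active CT3, beside 0.425% of all genes tested, and 10 had a log2 fold change above 0, beside 50.6%. Mfe2, the multifunctional enzyme of the peroxisomal pathway, had 277, 299.5 and 311 CPM in active CT3, against 263, 237 and 241 CPM in active CT2, a small difference without overlap (log2 fold change 0.26, SE 0.065, adjusted p = 0.048). The acyl-CoA oxidase gene Acox57D-d had 57.4, 59.3 and 53.3 CPM in active CT3, against 47.2, 40.6 and 41.8 CPM in active CT2 (log2 fold change 0.38, SE 0.093, adjusted p = 0.048). Of the 6 settings that left out a library, Mfe2 was DE in 2 and Acox57D-d in 1, and DESeq2 did not call Acox57D-d. The carnitine octanoyltransferase gene CROT did not overlap between the groups and was not DE (log2 fold change 0.36, adjusted p = 0.12). CG17544 was the member below 0, with 7 to 18 counts per library. None of 12 tested peroxin genes was DE with edgeR or DESeq2 (2 had an unadjusted p under 0.05), although 11 were above 0 with a median of 0.15. Pex2 had the largest log2 fold change of the peroxins (0.34, adjusted p = 0.48), and Pex14 had the lowest adjusted p (0.21, adjusted p = 0.28). Summed levels were 1042 to 1069 CPM in active CT3, against 859.9 to 975 CPM in active CT2 for the oxidation list, and 382 to 416 CPM in active CT3, against 336 to 378 CPM in active CT2 for the peroxins.

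No gene on the lists of TAG, phospholipid or fatty acid synthesis was DE between the active derivatives with edgeR (0 of 8, 0 of 10 and 0 of 11 tested). DESeq2 called 0 of them, and 4 had an unadjusted p under 0.05. Sc2, an enoyl-CoA reductase of fatty acid elongation, was outside these lists and was DE. The DGAT1 gene mdy had 52.5, 50.4 and 48.6 CPM in active CT3, against 52.3, 51.1 and 43.8 CPM in active CT2. The groups overlapped, the log2 fold change was 0.03, and its 95% interval of -0.15 to 0.22 lay within 1.5-fold either way. Dgat2, CG1941 and CG1946, of the DGAT2 family, had 0 to 2 counts per library and were not tested. The glycerol-3-phosphate acyltransferase genes Gpat4 and mino and the lipin gene Lpin had log2 fold changes of 0.21, 0.17 and 0.13, with adjusted p between 0.25 and 0.58. The TAG synthesis list had a median of 0.15, with 7 of 8 tested genes above 0, beside 50.6% of all genes tested. Its summed level was 633 to 644 CPM in active CT3, against 544 to 624 CPM in active CT2. In no gene of this list did all active CT3 libraries lie above all active CT2 libraries, which held for 8.53% of all genes tested. In 1 gene of the list they all lay below, which held for 7.86% of all genes tested. The fatty acid synthase gene CG3523 (-0.03, 95% interval -0.25 to 0.18), the ATP citrate lyase gene ATPCL (-0.07, -0.20 to 0.05) and the desaturase gene Desat1 (-0.06, -0.17 to 0.05) had intervals on both sides of 0. The medians of the fatty acid synthesis and phospholipid lists were -0.02 and 0.02. For 9 of 11 and 9 of 10 of their tested genes the 95% interval lay within 1.5-fold either way, which does not show that the compounds act alike on them.

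**Figure D3:**
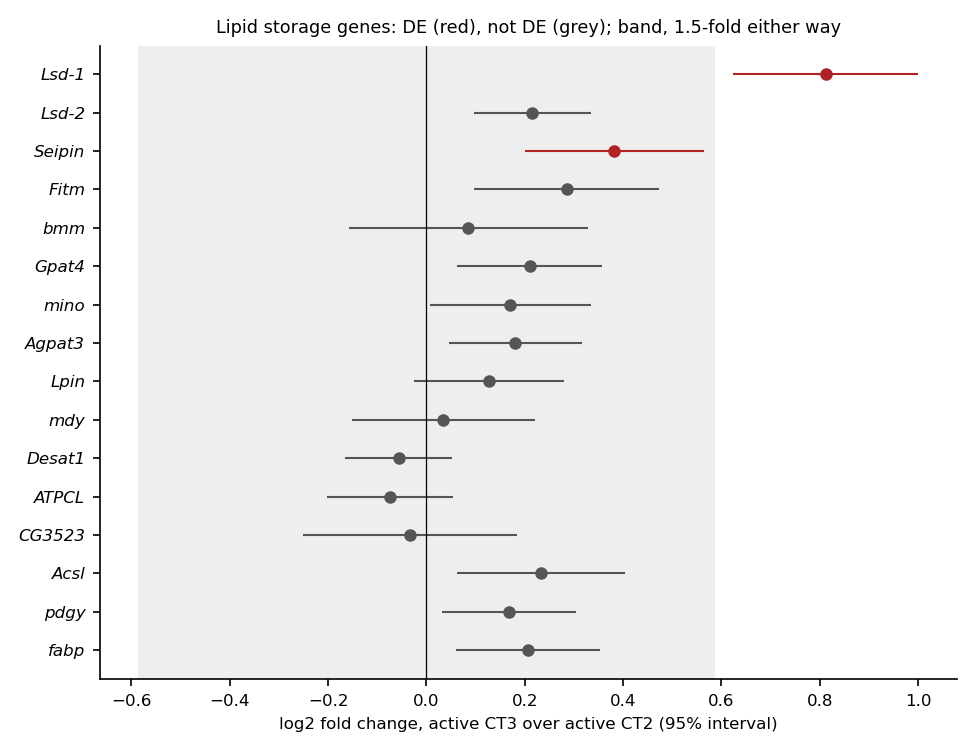
Log2 fold change of active CT3 over active CT2 (points) with 95% intervals (lines) for 16 genes of lipid storage and synthesis, DE in red and not DE in grey, over a band of 1.5-fold either way. Lsd-1 lies beyond the band with its interval, Seipin is the other DE gene, and mdy, CG3523, ATPCL and Desat1 cover 0.

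Of 25 tested glutathione S-transferase (GST) genes, 3 were DE, all higher in active CT3, beside 0.425% of all genes tested. GSTs conjugate glutathione to reactive and foreign compounds. GstT2 had 64.4, 64.8 and 58.3 CPM in active CT3, against 50.9, 45.9 and 40.9 CPM in active CT2 (log2 fold change 0.43, SE 0.088, adjusted p = 0.0076). GstT1 had 104, 107 and 96.3 CPM in active CT3, against 82.1, 86.1 and 76.7 CPM in active CT2 (log2 fold change 0.32, SE 0.065, adjusted p = 0.0076). The microsomal GST gene Mgstl had 239, 209 and 209 CPM in active CT3, against 198, 160.1 and 154 CPM in active CT2 (log2 fold change 0.35, SE 0.077, adjusted p = 0.015). None of the 3 overlapped between the groups. GstT3 and GstE2, 2 further GST genes, were not DE (0.20, adjusted p = 0.51 for GstT3 and 0.23, adjusted p = 0.45 for GstE2). GstE9 had the largest fold change of the family at 0.83, but few counts (8 in active CT3 replicate 1) and an adjusted p of 0.27. The family as a whole had a median of 0.02 and 14 of 25 genes above 0, beside 50.6% of all genes. None of 35 tested cytochrome P450 genes, 12 UDP-glycosyltransferase genes and 15 genes of the cnc, Keap1 and antioxidant list was DE with edgeR (8 at an unadjusted p under 0.05, and 1 with DESeq2), with medians of 0.02, 0.02 and 0.08. The peroxiredoxin gene Prx6c was the gene that DESeq2 called, with 562, 586 and 599 CPM in active CT3, against 542, 442 and 453 CPM in active CT2 (log2 fold change 0.28, SE 0.07, adjusted p = 0.0502).

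The remaining DE genes higher in active CT3 lay outside these lists or in the citric acid cycle list. Wwox, a short-chain dehydrogenase with WW domains, had 22.4, 23.9 and 22.9 CPM in active CT3, against 15.1, 15.0 and 17.1 CPM in active CT2 (log2 fold change 0.55, SE 0.12, adjusted p = 0.018). Active CT2 overlapped with vehicle OA for this gene (14.6 and 15.8 CPM), and active CT3 stood above both. Wwox was DE in 1 of the 6 settings that left out a library and was not called by DESeq2. Amacr, a racemase of branched fatty acyl-CoA, had 35.6, 41.8 and 35.3 CPM in active CT3, against 25.1, 26.0 and 28.6 CPM in active CT2 (log2 fold change 0.49, SE 0.1, adjusted p = 0.012). Sirup, an assembly factor of succinate dehydrogenase, had 81.7, 75.1 and 73.8 CPM in active CT3, against 60.7, 55.2 and 54.5 CPM in active CT2 (log2 fold change 0.43, SE 0.083, adjusted p = 0.007). For Amacr and Sirup active CT2 lay between active CT3 and vehicle OA, which had 12.1 and 14.4 CPM and 19.3 and 26.4 CPM. ScsbetaG, a subunit of succinyl-CoA ligase, was the DE gene among 17 tested of the citric acid cycle, beside 0.425% of all genes tested. It had 81.7, 74.8 and 80.0 CPM in active CT3, against 64.6, 56.7 and 62.4 CPM in active CT2 (log2 fold change 0.36, SE 0.078, adjusted p = 0.014), and the list had a median of 0.03. CG5167 had 168, 162 and 175 CPM in active CT3, against 138, 120.3 and 118 CPM in active CT2 (log2 fold change 0.43, SE 0.064, adjusted p = 2.3e-04), and CG2604 had 74.0, 81.3 and 79.3 CPM in active CT3, against 60.9, 60.8 and 58.7 CPM in active CT2 (log2 fold change 0.39, SE 0.067, adjusted p = 0.0018). These were the genes that, with Lsd-1 and Orct2, were DE without each library in turn. CG5958 and CG18473 had log2 fold changes of 0.44, adjusted p = 0.0057 and of 0.43, adjusted p = 0.0088. Regucalcin had 2614, 2471 and 2654 CPM in active CT3, against 2258, 1972 and 2123 CPM in active CT2, where the difference was small (log2 fold change 0.28, SE 0.058, adjusted p = 0.0076). The other DE genes were Sc2, an enoyl-CoA reductase of fatty acid elongation, Hsdl2, CG17597, Gtpx, l(2)k09913, CG5510, CG12702, CG8501 and the noncoding lncRNA:CR44526, with log2 fold changes of 0.32 to 0.40 and adjusted p of 0.0018 to 0.0495.

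The 3 genes lower in active CT3 were Rab3, CG10555 and Drat. Rab3, a small GTPase known from synaptic vesicles, had 19.2, 17.7 and 18.8 CPM in active CT3, against 26.1, 26.2 and 24.8 CPM in active CT2. Active CT3 lay below active CT2, inactive CT3 (24.4, 24.9 and 30.7 CPM) and vehicle OA (28.7 and 27.0 CPM), but overlapped with inactive CT2 (18.6, 24.1 and 17.8 CPM). The direct difference was DE (log2 fold change -0.47, SE 0.11, adjusted p = 0.0453). The neuron markers elav and brp, which were not DE, also had lower summed levels in active CT3 (the ranges are given above), and nSyb and Syt1 had at most 3 counts per library. Their part in the Rab3 result was not tested. Rab3 was DE in none of the 6 settings that left out a library. CG10555 had 80.4, 72.2 and 75.8 CPM in active CT3, against 91.3, 99.7 and 93.4 CPM in active CT2 (log2 fold change -0.32, SE 0.074, adjusted p = 0.025). Drat, named as a death resistor with an alcohol dehydrogenase domain, had 275, 285 and 245 CPM in active CT3, against 360.0, 323 and 304 CPM in active CT2 (log2 fold change -0.30, SE 0.071, adjusted p = 0.038). CG10555 was DE in 2 and Drat in 1 of those 6 settings. Against vehicle OA, only Rab3 of the 3 was DE in active CT3 (-0.58, adjusted p = 0.0023), and none was DE in active CT2.

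Among 11 further lists with 261 tested genes, edgeR called none DE in the direct comparison (25 had an unadjusted p under 0.05, and DESeq2 called 0). Mitochondrial ribosomal protein genes had a median of 0.11 with 57 of 71 tested above 0, and cytoplasmic ones a median of 0.05 with 62 of 76 above 0, beside 50.6% of all genes tested. Their summed levels were 1406 to 1467 CPM in active CT3, against 1319 to 1364 CPM in active CT2 for the mitochondrial ones, and 44995 to 46386 CPM in active CT3, against 42685 to 45541 CPM in active CT2 for the cytoplasmic ones, which overlapped between the groups. Proteasome subunits had a median of 0.04 over 34 genes, endoplasmic reticulum stress genes 0.03 over 14, heat shock proteins -0.02 over 14 and the COPI coat -0.04 over 8. Insulin, FOXO and TOR signalling (-0.06, 19 genes), dawdle and activin signalling (-0.01, 6 genes), pyruvate dehydrogenase (0.03, 5 genes) and circadian factors (-0.08, 5 genes) lay within 0.1 of 0. Of 10 lipid-sensing nuclear receptor and Mondo genes, 9 were below 0, while 50.6% of all genes tested were above 0, and the median of the 10 was -0.09. The lowest adjusted p among them was that of the ecdysone receptor gene EcR (-0.17, adjusted p = 0.33). The translation repressor gene Thor, listed with the stress genes, had 0.40 with a wide interval of -0.04 to 0.83.

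**Figure D4:**
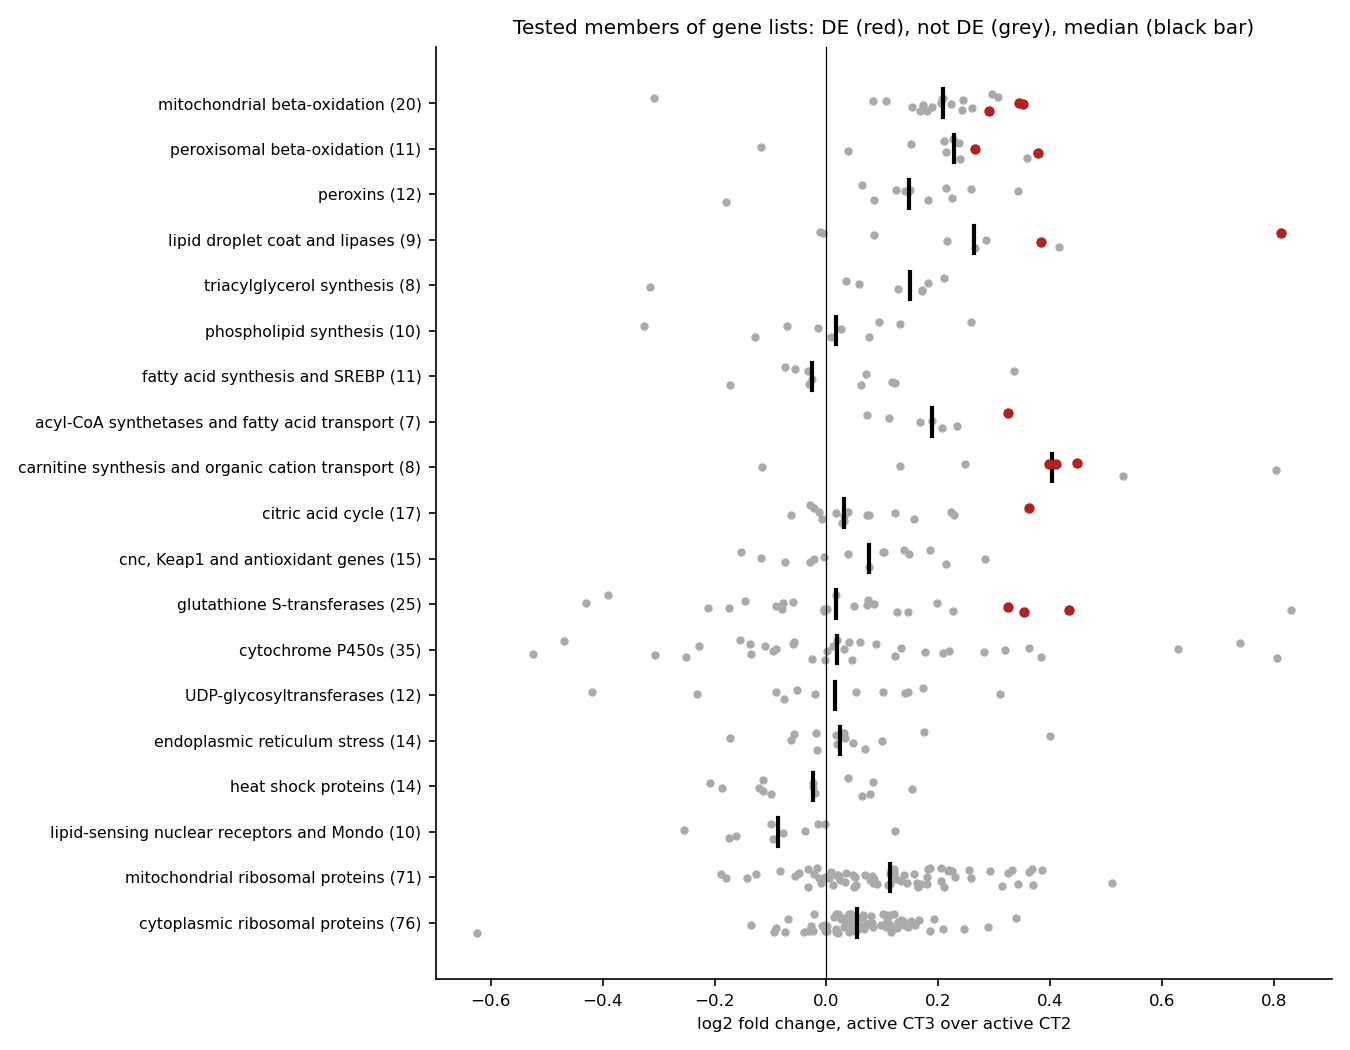
Log2 fold change of active CT3 over active CT2 for the tested members (points) of 19 gene lists, with the number tested in parentheses, DE genes in red and the list median as a black bar. The medians of beta-oxidation, LD, acyl-CoA synthetase and carnitine lists lie between 0.19 and 0.40, and DE genes occur in 7 of the lists.

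Set side by side with vehicle OA, whose libraries both comparisons share, active CT3 had 366 DE genes (4.87%, of them 301 higher) and active CT2 153 (2.03%, of them 148 higher). At an unadjusted p under 0.05 there were 1124 genes (14.9%) for active CT3 and 723 (9.61%) for active CT2. The counts were 193 and 74 without vehicle OA replicate 2 and 223 and 103 without its replicate 1, and limma on log2(FPKM + 1) gave 124 and 63. The 32 genes higher in the direct comparison were chosen on the same active libraries, so their values against vehicle OA are a description. All 32 were DE and higher in active CT3 (4.0% of all genes), and 24 were DE and higher in active CT2 (1.97%). Their median log2 fold change was 1.03 for active CT3 and 0.66 for active CT2. For Lsd-1 these values were 2.15 and 1.34, for Mcad 1.35 and 1.01, and for Orct2 1.06 and 0.67, all with adjusted p under 0.05. The 8 genes of the 32 that were not DE in active CT2 against vehicle OA included Wwox (0.59 in active CT3 and 0.04 in active CT2), GstT1 (0.45 and 0.13) and CG2604 (0.66 and 0.28). Across the lists, the medians against vehicle OA in active CT3 and active CT2 were 0.71 and 0.48 for mitochondrial beta-oxidation, 0.85 and 0.64 for peroxisomal beta-oxidation, and 1.30 and 0.87 for the carnitine list.

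The effect of each active derivative over its own inactive derivative gave comparisons without shared libraries. Active CT3 against inactive CT3 had 277 DE genes (3.68%), and active CT2 against inactive CT2 187 (2.49%). Of the genes that were higher, 235 in CT3 (3.12%) and 153 in CT2 (2.03%), 77 were called in both, which is 32.8% of the CT3 calls and 50.3% of the CT2 calls. In 73 of these 77 the effect was larger for CT3, with medians of 0.68 for CT3 and 0.39 for CT2, and the difference itself was DE for 15. The inactive pair had a median of -0.095 for these 77 genes, so the gap also holds a difference between the inactive references. Over all genes tested, the CT3 effect was above the CT2 effect for 3961 of 7522. Without single inactive libraries the shared genes numbered 27 to 97, with 25 of the 27 and 83 of the 97 larger for CT3. Of the genes that were lower, 42 in CT3 (0.558%) and 34 in CT2 (0.452%), 4 were shared. The 4 genes Rab3, Tpc2, Cyp6a8 and Prx6b went opposite ways over their inactive derivatives. Cyp6a8 and Prx6b were up in CT3 and down in CT2, and Rab3 and Tpc2 were down in CT3 and up in CT2. Of these 4, Cyp6a8 went opposite ways without each inactive library in turn, and the others did not. The CT2 directions depend on inactive CT2, which lay above vehicle OA for Cyp6a8 and below it for Rab3 and Tpc2. Against vehicle OA, neither Cyp6a8 nor Rab3 was DE in active CT2. The CT2 count depended on single inactive libraries, also on replicate 3, which did not stand apart: it was 102 without inactive CT2 replicate 1, 420 without replicate 2 and 59 without replicate 3.

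**Figure D5:**
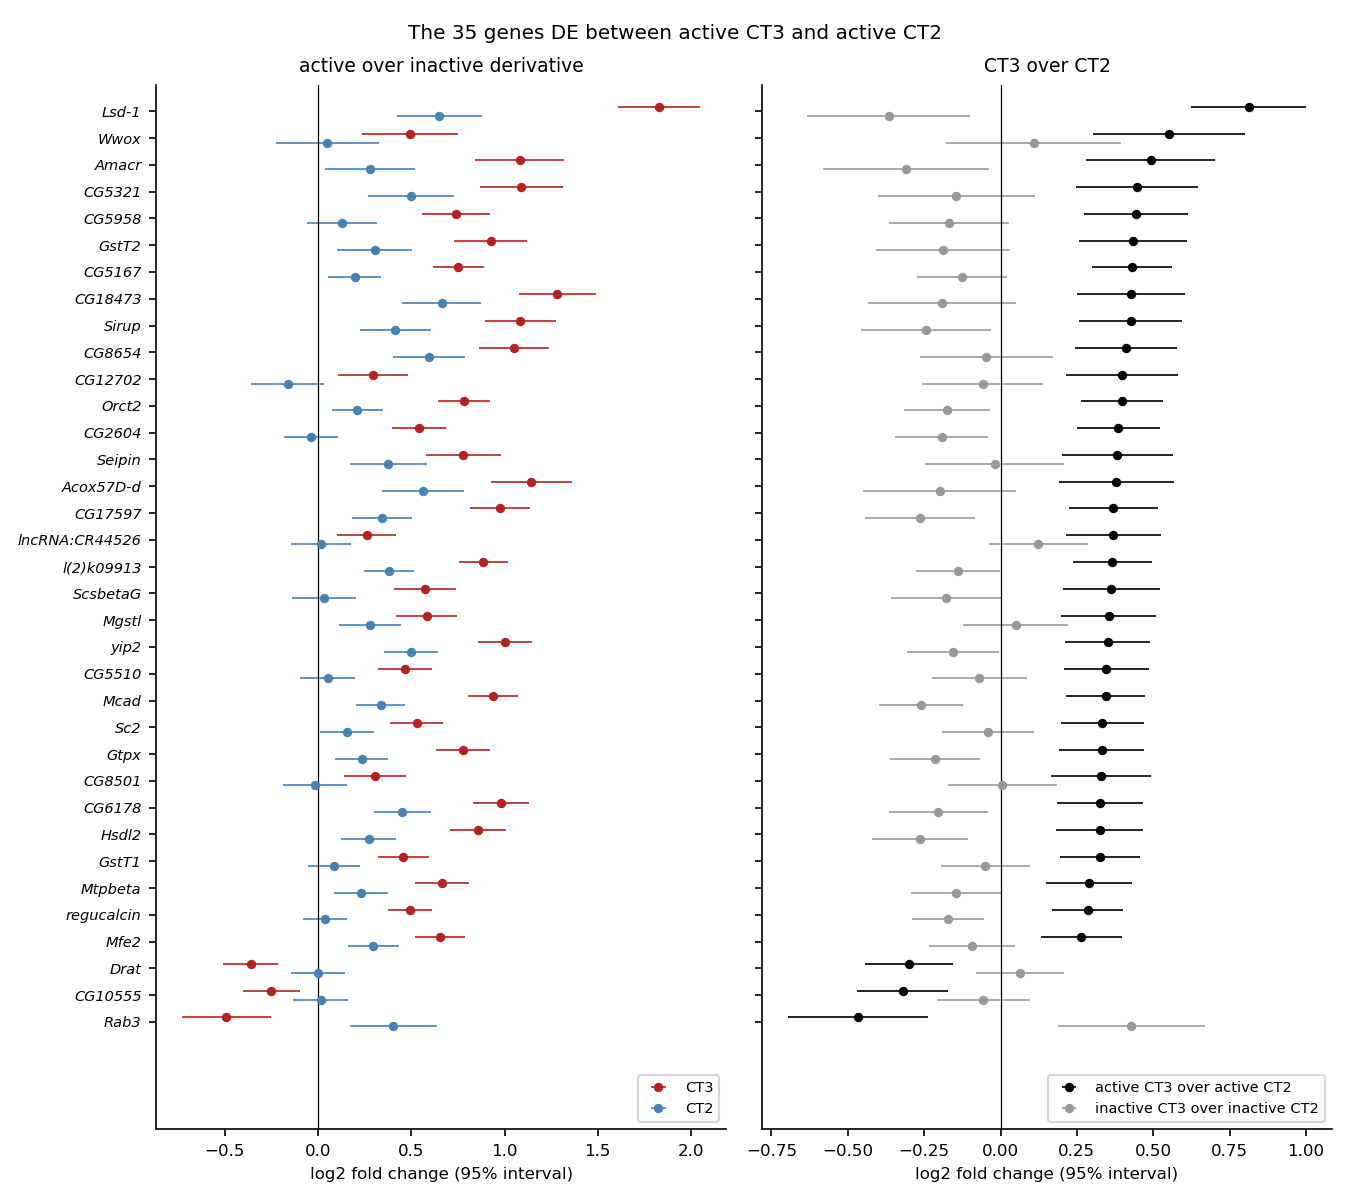
Log2 fold changes with 95% intervals (lines) of the 35 DE genes, ordered by the direct comparison. The left panel shows active over inactive CT3 (red) and active over inactive CT2 (blue), and the right panel active CT3 over active CT2 (black) and inactive CT3 over inactive CT2 (grey). For the 32 higher genes the red points lie right of the blue ones, and 28 of the grey points lie below 0.

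The inactive derivatives were compared with each other to see whether the chemotypes differed without lipid storage activity. Inactive CT3 and inactive CT2 differed in 13 genes (0.173%; 8 higher and 5 lower in inactive CT3), with 500 (6.65%) at an unadjusted p under 0.05. None of the 13 was among the 35, and none of the 32 genes higher in active CT3 was DE between the inactive derivatives (13 had an unadjusted p under 0.05). Of these 32, 28 had a log2 fold change below 0 in the inactive pair, with a median of -0.16. Over all genes tested, 3552 of 7522 were above 0 in the inactive pair, with a median of -0.01. Without single inactive libraries, 27 to 29 of the 32 were below 0, with medians of -0.21 to -0.12. Without replicate 3 of inactive CT2, 2 of the 32 were DE in the inactive pair. Tpc2, a mitochondrial thiamine pyrophosphate carrier, had 27.8, 27.1 and 29.3 CPM in inactive CT3, against 12.5, 14.8 and 12.4 CPM in inactive CT2 (log2 fold change 1.11, SE 0.13, adjusted p = 1.5e-06). Vehicle OA was at 30.0 and 25.2 CPM, so inactive CT2 stood apart. Cyp6a8, a cytochrome P450, had 23.1, 24.5 and 23.5 CPM in inactive CT3, against 59.3, 49.3 and 47.6 CPM in inactive CT2 (log2 fold change -1.11, SE 0.14, adjusted p = 6.9e-06), with 18.2 and 21.8 CPM in vehicle OA. The same held for CG6908 (-0.66) and for Zw, the glucose-6-phosphate dehydrogenase gene (-0.68), which were lower in inactive CT3, and for CG12071 (1.12) and CG8908 (1.03), which were higher. In each of these 6 genes inactive CT2 lay farther from vehicle OA than inactive CT3. Dropping replicate 1 of inactive CT2 left 6 genes, dropping its replicate 2 gave 21, and dropping replicate 3 of inactive CT3 left 7.

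The difference of effects, active minus inactive in CT3 less the same in CT2, was DE for 63 genes (0.838%; 43 higher and 20 lower), and for 21 of the 32 genes higher in the direct comparison. It shares the 6 active libraries with that comparison. For Lsd-1 it was 1.18 (SE 0.16, adjusted p = 2.8e-05), for Mcad 0.60 (adjusted p = 2.3e-04) and for Orct2 0.57 (adjusted p = 5.9e-04). In the inactive pair, whose libraries it also holds, Lsd-1 had a log2 fold change of -0.37 and Mcad of -0.26, neither DE. Without single inactive libraries the difference was 1.10 to 1.32 for Lsd-1, 0.55 to 0.67 for Mcad and 0.52 to 0.66 for Orct2, DE each time, and 17 to 23 of the 32 genes were DE. For Tpc2 it was -1.42 and for Cyp6a8 1.42, with 1.11 and -1.11 in the inactive pair. With replicate 1 of inactive CT2 dropped there were 50 genes, with its replicate 2 dropped 84, and with replicate 3 of inactive CT3 dropped 48. At an unadjusted p under 0.05 there were 742 genes (9.86%).

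Genes chosen from libraries outside the comparison were also described. This choice was made after the results above were known. Active CT1 against inactive CT1, another chemotype with 3 libraries each, had 957 DE genes (12.7%), 633 (8.42%) higher and 324 (4.31%) lower. All 32 genes higher in active CT3 than in active CT2 were among the 633. Of these 633 genes 481 were above 0 in active CT3 against active CT2, with a median of 0.10, and in the inactive pair their median was -0.05. Of the 324 genes lower in active CT1, 258 were below 0 in the direct comparison, with a median of -0.10. Over all genes tested, 50.6% were above 0. Among the study's own clusters, which were chosen on these libraries and are no independent evidence, cluster 5 held 30 of the 32 genes, and 304 of its 350 tested genes were above 0 with a median of 0.16. Clusters 2, 3 and 4 had medians of -0.13, -0.09 and -0.07, with 0, 0 and 0 DE genes higher and 1, 0 and 1 lower. Cluster 1 had a median of 0.03. All 7 tested genes of the study's class of a rise particular to CT2 were below 0 (median -0.18), and all 16 of its class of a fall particular to CT2 were above 0 (median 0.21), none of them DE. These directions follow from how the classes were chosen. The glutaredoxin gene Grx5 had 20.8, 20.8 and 20.8 CPM in active CT3, against 12.3, 13.8 and 16.9 CPM in active CT2 (log2 fold change 0.53, SE 0.13, adjusted p = 0.0525). Of 19 tested genes of the class of a rise particular to CT3, 18 were above 0 (median 0.22) and Mgstl was DE.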

How the data were processed

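Polyadenylated RNA of S3 cells was sequenced as stranded single-end libraries. The authors aligned reads with TopHat2 2.0.10 to the BDGP R5 genome with FlyBase annotation, keeping 1 place per read, so near-identical paralogs may be undercounted. The authors deposited raw read counts per gene (HTSeq 0.5.4p1) and, separately, FPKM values (Cufflinks 2.1.1). Symbols were given to 16895 of 17142 gene IDs, and 8 of 632 listed names found no match. Groups came from the labels. Counts of 22 libraries with DMSO were fitted with edgeR 4.0.16 (R 4.3.3): TMM scaling, filterByExpr, quasi-likelihood F test, Benjamini-Hochberg adjustment over the 7522 tested genes of each comparison. Standard errors were derived from the F statistic. A gene was DE at an adjusted p under 0.05. 2 vehicle libraries of each kind were used, as in the study. The script was tested on simulated data, in which the share of false calls among the DE calls of the direct comparison was above the nominal level. The DE calls as a set, and most of all those with an adjusted p just under 0.05, are to be read with caution. Alternatives were DESeq2 1.42.0, limma 3.58.1 on log2 FPKM with pseudocounts of 1 and 0.1, RLE scaling, other filters and library sets, a replicate block and leaving out each library. 2 more were added after seeing the data. Lists were described by counts and medians, with no set test. Members, lists and tests were chosen with earlier results of these data known. Named genes were the 10 largest rises and falls among DE genes without overlap, up to 4 genes with the lowest adjusted p per list, 11 genes of lipid storage, lipid synthesis and conjugation fixed by name, the 5 with the lowest adjusted p in the difference of effects, the 3 largest changes each way in the inactive pair, and up to 3 per study class. Other named genes were chosen after their values were seen. Depth is given in the report for the active and inactive CT3 and CT2 libraries, and genes with few counts have wide intervals. Some members of the lists are counted but not reported here by name.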

Additional observations from a re-analysis of the deposited data

Results flagged for a closer look

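The effect of the active over the inactive derivative differed between CT3 and CT2 for 63 genes by the interaction term of edgeR (adjusted p under 0.05), and values are given here for 35 named genes. Values are log2 differences, CT3 effect minus CT2 effect. Among LD coat genes they were 1.18 for Lsd-1 and 0.44 for Lsd-2. Among genes of mitochondrial beta-oxidation they were 0.60 for Mcad, 0.51 for yip2 and 0.44 for Mtpbeta. Among acyl-CoA synthetases and organic cation transport they were 0.53 for CG6178, 0.48 for pdgy and 0.57 for Orct2. Among glutathione conjugation, peroxiredoxins and cytochrome P450s they were 0.37 for GstT1, 0.62 for GstT2, 0.53 for Prx6b, 0.63 for Prx6c, 1.42 for Cyp6a8 and 0.45 for Cyp6w1. Among the citric acid cycle they were 0.54 for ScsbetaG and 0.36 for Scsalpha1. Other genes with a larger effect in CT3 had 0.80 for Amacr, 0.61 for CG5958, 0.56 for CG5167, 0.62 for CG18473, 0.67 for Sirup, 0.79 for Zw, 0.75 for CG6908, 0.50 for l(2)k09913, 0.46 for regucalcin, 0.63 for CG17597, 0.54 for Gtpx, 0.58 for CG2604, 0.41 for CG5510 and 0.59 for Hsdl2. Genes with a more negative effect in CT3 had -0.90 for Rab3, -1.42 for Tpc2, -0.76 for CG14961, -1.63 for CG12071 and -1.29 for CG8908. For Cyp6a8, Zw, CG6908, Tpc2, CG12071 and CG8908 the inactive derivatives also differed from each other, and 13 of the 63 genes were DE there. Without each inactive CT3 or CT2 library in turn the difference was -1.48 to -1.35 for Tpc2 and 1.34 to 1.52 for Cyp6a8, DE each time.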

How the results depend on the processing

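In active CT3 against active CT2, all 35 DE genes kept their direction in every setting, and no called value changed sign, while some list medians near 0 and genes that were not DE did. The libraries of the 35 did not overlap, so leaving out 1 library could hardly reverse their direction. The count of 35 was 84 without a filter on low counts, 134 with only the groups compared, 0 with limma on log2(FPKM + 1) or log2(FPKM + 0.1) (283 and 274 at an unadjusted p under 0.05) and 3 without a filter on FPKM, none of them among the 35. With settings added after seeing the data it was 292 for only the groups compared with a replicate block and 21 for limma on log2 CPM. DESeq2 called 37, of which 29 were among the 35. Leaving out 1 library gave 4 to 47, and 47 came without active CT2 replicate 1. For the inactive pair the 13 became 25 without a filter, 22 with the FPKM filter, 8 with all 24 libraries, 5 with only the groups compared, 3 with the block added to that, 2, 2 and 4 with limma on FPKM, and 5 to 21 without 1 library. The 63 of the difference of effects became 112 without a filter, 0, 0 and 3 with limma on FPKM (462 and 451 at an unadjusted p under 0.05 for the first 2), and 45 to 84 without 1 library. With limma on FPKM, the 366 genes of active CT3 against vehicle OA became 124, 123 and 110, the 153 of active CT2 against vehicle OA 63, 64 and 60, the 277 of active against inactive CT3 91, 94 and 92, and the 187 of active against inactive CT2 20, 21 and 18, or 69 with only the groups compared. Limma on log2(FPKM + 1) moved the median of all genes to -0.06 for active CT3 against active CT2, where it was 0.00 with edgeR, to -0.11 for the difference of effects and to 0.11 for active against inactive CT2. Leaving out 1 library gave 193 to 309, 74 to 157, 193 to 224 and 59 to 420 for these 4 comparisons. Over the named genes and settings, 2447 calls were the same, 239 lost the threshold and 81 passed it. The cause of these changes was not tested.

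The labels do not say whether replicate numbers pair the samples. Deviations of same-numbered active CT3 and active CT2 libraries correlated at 0.037, 0.030 and 0.049, and those with other numbers at -0.038 to -0.0019. Each active CT3 library correlated best with its own number, a hint from the data only. The 18S share of replicates 1, 2 and 3 was 44.75%, 51.45% and 40.53% in active CT3, and 46.08%, 51.06% and 41.6% in active CT2. It was 45.75%, 51.33% and 35.56% in inactive CT2, but 51.13%, 42.91% and 42.85% in inactive CT3. Same-numbered inactive CT3 and inactive CT2 libraries correlated at -0.065, -0.096 and -0.139. Whether same-numbered libraries were handled together was not tested. With the replicate block the count was 46, and all 35 genes were among them. The block gave 13 for the inactive pair, 81 for the difference of effects, 364 and 163 against vehicle OA, and 291 and 215 for active against inactive CT3 and CT2. With 3 libraries per group, genes with few counts could not be resolved at this depth.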
